A study of Rattus norvegicus with 24 samples.

Results

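The mitochondrial respiratory chain was measured in rat nucleus accumbens (NAc) as the 71 probes, of 22523 on the array, whose gene symbol begins with Nduf, Sdha, Sdhb, Sdhc, Sdhd, Uqcr, Cox4 to Cox8 or Atp5. These symbols name subunits of complex I (30 probes), complex II (4), complex III (4), complex IV (11) and complex V, the ATP synthase (13), and 9 assembly factors, proteins that help build complex I or II without staying in it. Each gene symbol had 1 probe. A probe was tested if it was detected above background on at least 4 of the 24 arrays, and 68 of the 71 passed, as did 12956 of all 22523 probes.

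Male Sprague-Dawley rats were given 2 injections a month apart and were killed 2 h after the second. MM rats received methamphetamine (METH) at both (10 mg/kg, then 2.5 mg/kg, 7 arrays), MS rats METH (10 mg/kg) then saline (7 arrays), SM rats saline then METH (2.5 mg/kg, 6 arrays) and SS rats saline at both (4 arrays). METH is a psychostimulant that enters dopamine nerve endings and releases dopamine, and the NAc is one of the areas those endings reach. The labels call the tissue NAc and its source striatal, and leave unstated whether an array stands for a single rat, so the p-values reflect only how far these samples spread, which may be technical.

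The respiratory chain sits in the inner mitochondrial membrane. Complexes I and II take electrons from NADH and succinate, complex III passes them to cytochrome c, complex IV hands them to oxygen, and complex V uses the proton gradient that complexes I, III and IV build to make ATP. Most of the subunits are encoded in the nucleus, and the probes named here belong to those nuclear genes. Neurons depend on the chain for the ATP that restores ion gradients after firing.

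The 4 SS arrays stood apart from the other 20 in 5 of 10 lists of genes that mark brain regions or cell types. The mean of 11 probes for medium spiny neurons, which make up most of the NAc, relative to the mean of all arrays in log2 units, was -0.37 to -0.03 in MM, -0.41 to 0.00 in MS and -0.24 to 0.18 in SM, against 0.54 to 0.69 in SS. That of 9 probes for hypothalamus and preoptic area was 0.01 to 0.43 in MM, -0.06 to 0.49 in MS and -0.23 to 0.40 in SM, against -1.24 to -0.62 in SS. At an adjusted p under 0.05 (limma, a linear model over all arrays and probes), 11, 11 and 10 of the 11 medium spiny neuron probes were lower in MM, MS and SM than in SS, and 7, 8 and 7 of the 9 hypothalamic probes were higher. All 11 medium spiny neuron probes, those for the dopamine receptors Drd1 and Drd2 included, were detected on all 24 arrays. The lists for GABA interneurons (-0.14 to 0.37 in the 20 arrays of MM, MS and SM, against -0.79 to -0.40 in SS), oligodendrocytes (-0.45 to 0.12, against 0.21 to 0.42) and muscle (-0.28 to 0.09, against 0.18 to 0.47) also set SS apart, and of 9 oligodendrocyte probes 4, 4 and 9 were lower in MM, MS and SM. Not every probe of a list moved. In MS against SS, the interneuron genes Calb2, Lhx6, Sst and Gad1 were called higher (log2 difference 1.65, 1.28, 0.59 and 0.28). Pvalb (-0.05) and Npy (0.05) were not called. Of the muscle genes, Acta1 (-0.91) and Tagln (-0.51) were called lower in MS and Tnnt3 (0.04) was not called. The glutamatergic cortex list overlapped with SS (-0.37 to 0.44 in the 20 arrays, against 0.16 to 0.77). In MS all of its probes but Camk2a were called lower, though Neurod6, Slc17a7 and Rtn4r were detected on just 2, 1 and 1 of the 7 MS arrays. Of the astrocyte genes, Gfap was called lower in MS and SM (-1.25 and -1.62), Slc1a3 higher (0.40 and 0.36) and the rest not called. The mean of 3 choroid plexus probes was 0.38 to 3.30 in MM, and 0.07 or less on each other array, mostly through Ttr, the thyroid hormone carrier that this tissue secretes (log2 difference 5.44 in MM against MS and 5.01 in MM against SM). Neither Otx2 nor Aqp1, the other probes, passed in these comparisons, and Otx2 was called higher than in SS in all 3 groups (1.46 in MM, 1.14 in MS and 1.05 in SM). Fewer cells of a type and less RNA per cell cannot be told apart in tissue, and the part of any of these differences in the results below was not tested. All comparisons against SS share the same 4 SS arrays.

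Across the arrays, 49.4% to 53.8% of probes were detected, with a median intensity of 10 to 23, and 66 to 68 of the 71 respiratory chain probes. The arrays lie on 2 slides, each with all 4 groups. The 3 arrays SM 3, MS 1 and SS 1 had a low estimated quality weight in limma (0.25, 0.32 and 0.34, in that order), where the average array has a weight near 1. Members whose call changed without these arrays are named below, and other values without them are not all given.

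Averaged over the 59 tested subunits, the chain was nearly level across the groups. The mean deviation from the average of all arrays, in log2 units, was -0.05 to 0.06 in MM (median 0.04), -0.04 to 0.08 in MS (median 0.02) and -0.07 to 0.06 in SM (median 0.00). In the SS arrays it was -0.16, -0.08, -0.02 and -0.01. SS was the lowest group and its ranges overlapped with those of each other group, and the SS 1 array lay lowest of all.

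**Figure D1:**
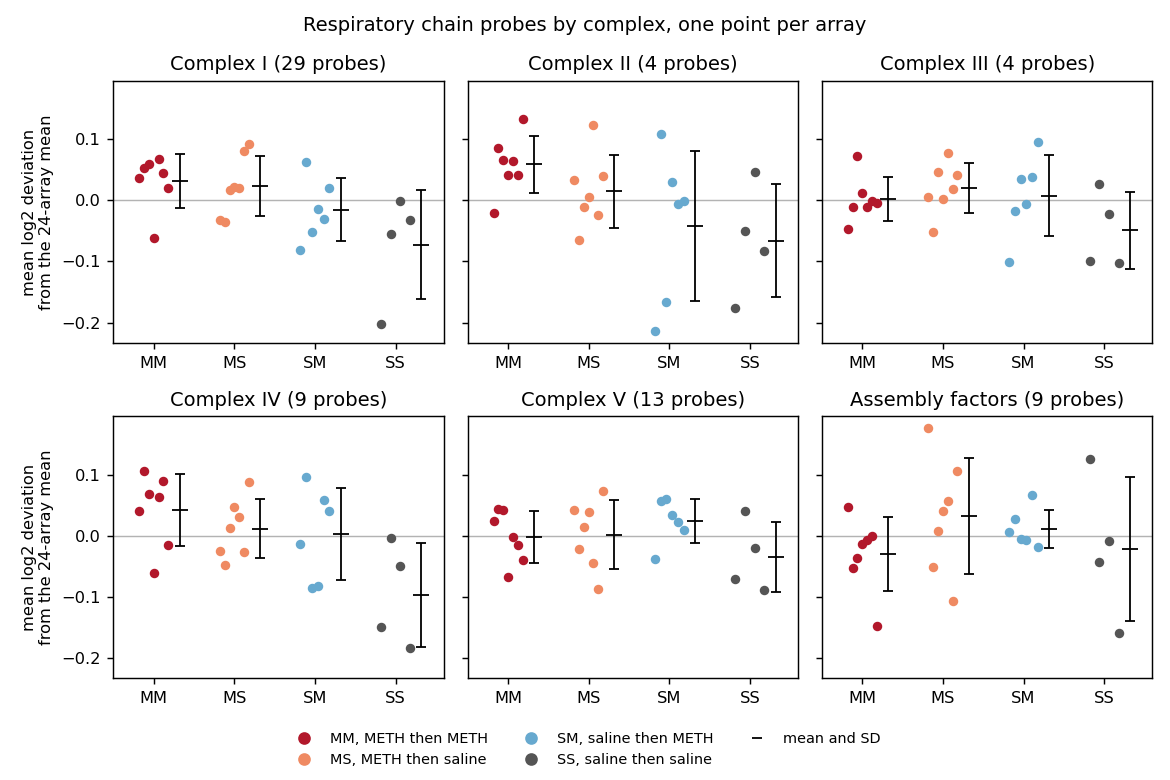
Mean log2 deviation from the 24-array mean over the tested probes of each complex and of the assembly factors (y axis), by group (x axis), with 1 point per array and the mean with SD beside it. SS arrays are the lowest on average in complexes I to V, the points of the 4 groups overlap in each panel, and 1 MM array (MM 4) lies lowest of its group in complexes I, IV and V.

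The 68 tested probes, assembly factors included, differed little from SS in the median. Their median log2 difference was 0.07 in MM, 0.07 in MS and 0.04 in SM, against 0.00, 0.00 and 0.01 over all tested probes. The difference was above 0 for 51 of 68 in MM, 54 (79.4%) in MS and 50 (73.5%) in SM, against 50.4%, 50.7% and 51.6% of all tested probes. With the series matrix values the median was 0.15 in MM, 0.16 in MS and 0.22 in SM, against 0.13, 0.14 and 0.25 over all tested probes, so in SM it lay below that of all probes. Of all probes called, 48.9% were higher in MM, 48.8% in MS and 44.5% in SM. With the series matrix values these shares were 67.4%, 69.1% and 83.7%, and with arrays scaled to a common median that of SM was 54.8%. The 95% interval of a member's difference lay within 1.5-fold either way for 66, 66 and 67 of the 68.

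Few of the probes passed the test. In MM against SS, 6 of 68 were higher (8.82%) and 2 lower (2.94%), where 11.0% of all tested probes were higher and 11.5% lower (22.5% either way). In MS against SS, 5 were higher (7.35%) and 0 lower, where the shares over all probes were 8.80% higher and 9.23% lower (18.0% either way). In SM against SS, 2 were higher (2.94%) and 0 lower, against 6.07% and 7.59% (13.7% either way). The share called higher lay below that of all tested probes in each comparison. At an unadjusted p under 0.05 in the same limma fit, 13 members were higher and 3 lower in MM, 10 higher and 2 lower in MS, and 4 higher and 0 lower in SM. The shares higher, 19.1%, 14.7% and 5.88%, compare with 16.8%, 14.6% and 12.1% of all tested probes, and the shares lower, 4.41%, 2.94% and 0%, with 17.0%, 15.0% and 13.8%. With single arrays left out, the count called in MS ran from 3 (without SS 1, SS 2 or MS 4) to 9 (without SM 3), and that in SM from 1 (without SS 4) to 3 (without SS 1 or SM 3). Fewer passed when arrays were only scaled to a common median (Cox7a2l, Ndufa7, Ndufa8 and Ndufb8 in MM, Cox7a2l and Ndufa7 in MS, and Ndufa7 in SM, all higher), and with the authors' series matrix values, which are not scaled between arrays, Cox7a2l in MM was the only call. Without the 3 arrays of low weight, 9 were higher and 1 lower in MM, 5 higher in MS and 4 higher in SM. In MM, Ndufs1 and the assembly factors Ndufaf5 and Sdhaf3 were then called and Ndufaf4 was not, in MS Ndufa8 was called and Ndufv2 was not, and in SM Ndufaf5 and Sdhaf3 were added.

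**Figure D2:**
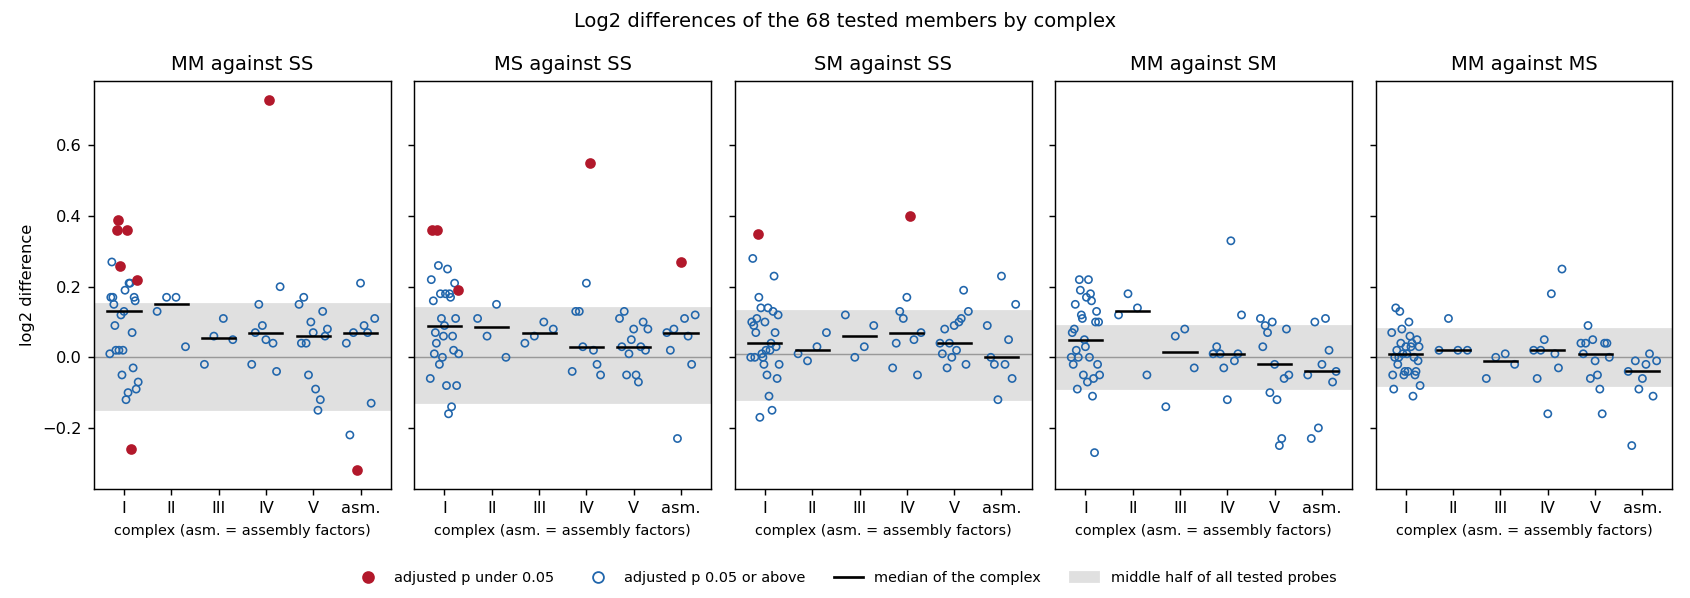
Log2 difference of each tested probe (y axis) by complex (x axis; asm. stands for assembly factors) in 5 comparisons, with filled red points for adjusted p under 0.05, open points for the rest, a bar at the median of each complex and a grey band between the quartiles of all tested probes. The called probes are few, most lie in complex I, which holds 29 of the 68 tested probes, and Cox7a2l is the highest point in complex IV in each comparison with SS.

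Complex I, the entry point for electrons from NADH and the largest of the complexes, held most of the calls and 29 of the 68 tested probes. Of its 29 tested subunits, 5 were higher and 1 lower in MM, 3 higher and 0 lower in MS and 1 higher and 0 lower in SM. Over all tested probes, 11.0% were higher and 11.5% lower in MM, 8.80% and 9.23% in MS, and 6.07% and 7.59% in SM. The median log2 difference over the 29 was 0.13 in MM (range -0.26 to 0.39), 0.09 in MS (-0.16 to 0.36) and 0.04 in SM (-0.17 to 0.35).

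Ndufa7, an accessory subunit of the peripheral arm of complex I, was higher in all 3 METH-treated groups. Its normalised log2 intensity was 8.47 to 8.86 in MM (median 8.65), 8.47 to 8.84 in MS (median 8.65) and 8.48 to 8.75 in SM (median 8.66), against 8.20, 8.21, 8.29 and 8.43 in SS. Every array of the 3 groups lay above the highest SS array, and the 3 groups overlapped with each other. The called members were picked on these same arrays, so such a separation, here and below, is no further support. How many of all tested probes separate from SS in this way was not counted. The log2 difference against SS was 0.36 ± 0.08 in MM (adjusted p = 0.00173, limma), 0.36 ± 0.08 in MS (adjusted p = 0.00195) and 0.35 ± 0.08 in SM (adjusted p = 0.00428), where ± is the standard error.

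Ndufa8, an accessory subunit with paired cysteines that faces the intermembrane space, and Ndufb8 and Ndufb11, accessory subunits of the membrane arm, were called higher in MM. Ndufa8 was 10.83 to 11.04 in MM (median 10.93), 10.50 to 10.97 in MS (median 10.87) and 10.45 to 10.91 in SM (median 10.78), against 10.29, 10.57, 10.66 and 10.74 in SS. All 7 MM arrays lay above the highest SS array, and the log2 difference was 0.39 ± 0.10 (adjusted p = 0.00429, limma). In MS it was 0.26 ± 0.10 (adjusted p = 0.0646) and in SM 0.17 ± 0.10 (adjusted p = 0.293).

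Ndufb8 was 11.24 to 11.45 in MM (median 11.36), 11.13 to 11.52 in MS (median 11.21) and 10.85 to 11.33 in SM (median 11.18), against 10.78, 10.97, 11.09 and 11.19 in SS. The MM arrays were again all above the SS arrays, while MS and SM overlapped with SS. The log2 difference was 0.36 ± 0.09 in MM (adjusted p = 0.00477, limma), 0.25 ± 0.09 in MS (just over the threshold of 0.05) and 0.14 ± 0.09 in SM (adjusted p = 0.379). Ndufb11 was 11.32 to 11.45 in MM (median 11.40), against 11.01, 11.10, 11.20 and 11.22 in SS, and its log2 difference was 0.26 ± 0.07 (adjusted p = 0.00889), a call that was lost with median scaling (adjusted p = 0.193). In MS and SM it was 0.18 ± 0.07 and 0.14 ± 0.07, and neither passed (adjusted p = 0.0757 and 0.248).

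Among the core subunits, the set that bacteria share, Ndufv2 was higher and Ndufs3 lower. Ndufv2, which holds an iron-sulphur cluster next to the flavin, was 11.45 to 11.66 in MM (median 11.57) and 11.44 to 11.63 in MS (median 11.52), against 11.26, 11.29, 11.38 and 11.45 in SS. The lowest MM and MS arrays lay at about the level of the highest SS array, and the log2 difference was 0.22 ± 0.06 in MM (adjusted p = 0.00992, limma) and 0.19 ± 0.06 in MS (adjusted p = 0.0315). In SM it was 0.12 ± 0.06 (adjusted p = 0.229). Both calls were lost with median scaling (adjusted p = 0.219 in MM and 0.303 in MS). That in MS was also lost when SS 1, SS 2, MS 1, MS 4 or MS 7 was left out (adjusted p = 0.0526 to 0.1) and with only the arrays compared (adjusted p = 0.109).

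Ndufs3, a core subunit of the peripheral arm, went the other way. It was 10.66 to 10.90 in MM (median 10.83), 10.74 to 11.22 in MS (median 10.91) and 10.82 to 11.02 in SM (median 10.92), against 10.89, 11.02, 11.05 and 11.31 in SS. 1 MM array (10.90) reached past the lowest SS array, and the highest SS value was that of SS 1. The log2 difference was -0.26 ± 0.08 in MM (adjusted p = 0.0219, limma), and the call was lost without SS 1 (adjusted p = 0.119) and with median scaling (adjusted p = 0.207). In MS and SM the difference was -0.14 ± 0.08 and -0.15 ± 0.08 (adjusted p = 0.241 and 0.280).

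Ndufa10l1, for which RefSeq also lists the name Ndufa10, was called in MS alone. Its probe may read both of these near-identical genes, so its gene is uncertain. The symbol Ndufa10 has a probe of its own, which was detected on all 24 arrays, was tested and was called in no comparison. Ndufa10l1 was 10.80 to 11.11 in MM (median 10.88), 10.66 to 11.24 in MS (median 11.03) and 10.71 to 11.25 in SM (median 10.93), against 10.47, 10.62, 10.77 and 10.79 in SS. The log2 difference was 0.27 ± 0.11 in MM (adjusted p = 0.0851, limma), 0.36 ± 0.11 in MS (adjusted p = 0.0245) and 0.28 ± 0.11 in SM (adjusted p = 0.106). The call in MS was lost when SS 1, SS 3, MS 3 or MS 4 was left out (adjusted p = 0.0519 to 0.0877), with median scaling (adjusted p = 0.0636) and with only the arrays compared (adjusted p = 0.0579).

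The other core subunits on the array were Ndufs1, the largest subunit of the peripheral arm, Ndufv1, which binds NADH and the flavin, and Ndufs7 and Ndufs8, which hold the iron-sulphur clusters nearest to ubiquinone. Ndufs1 differed from SS by 0.21 ± 0.10 in MM, 0.17 ± 0.10 in MS and 0.04 ± 0.10 in SM in log2 units, and none passed (adjusted p = 0.153, 0.284 and 0.840, limma). It was called in MM (adjusted p = 0.022) only without the 3 arrays of low weight. Ndufv1 differed by -0.09 ± 0.08, -0.08 ± 0.08 and -0.06 ± 0.08. Ndufs7 differed by 0.17 ± 0.10, 0.21 ± 0.10 and 0.07 ± 0.10, and Ndufs8 by 0.16 ± 0.08, 0.11 ± 0.08 and 0.03 ± 0.09, and none passed (smallest adjusted p = 0.153, for Ndufs7 in MS). The probe for Ndufs4 was at background on all 24 arrays and was not tested. RefSeq lists Ndufs6-ps1, which the symbol rule includes, as a pseudogene.

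**Figure D3:**
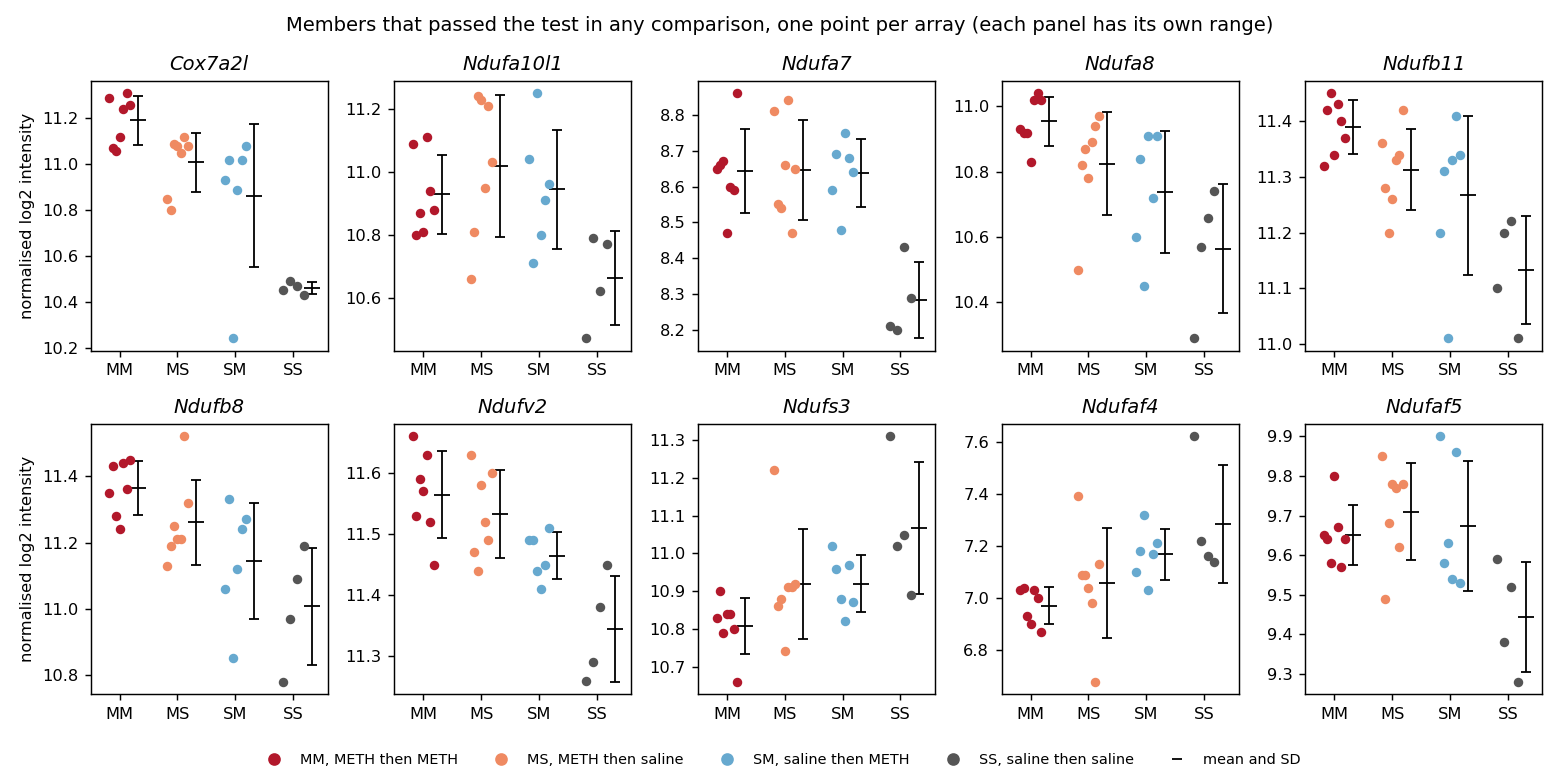
Normalised log2 intensity (y axis, with its own range in each panel) of the 10 probes that passed the test in any comparison, by group (x axis), 1 point per array with the mean and SD beside it. In Cox7a2l and Ndufa7 the SS arrays lie lowest apart from 1 SM array (SM 3) in Cox7a2l, and in Ndufs3 and Ndufaf4 the SS arrays lie highest on average.

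Complex II, succinate dehydrogenase, which is also an enzyme of the citric acid cycle, had no called subunit in any comparison. Sdha, its flavoprotein, differed from SS by 0.13 ± 0.10 in MM, 0.11 ± 0.10 in MS and 0.01 ± 0.10 in SM. Sdhb, the iron-sulphur subunit, differed by 0.17 ± 0.08, 0.06 ± 0.08 and -0.01 ± 0.08. The membrane anchors Sdhc and Sdhd differed by 0.17 ± 0.08 and 0.03 ± 0.08 in MM. In MM the interval of Sdhb excluded 0 (0.01 to 0.33) with an adjusted p of 0.135, and that of Sdhc reached to 0.34 (adjusted p = 0.137). In the SS arrays Sdhc was 11.50, 11.85, 11.85 and 11.88, the lowest being SS 1.

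Complex III, which moves electrons from ubiquinol to cytochrome c, had no call among its 4 probes. Uqcrfs1, the Rieske iron-sulphur protein, differed from SS by 0.11 ± 0.08 in MM, 0.10 ± 0.08 in MS and 0.03 ± 0.08 in SM. For Uqcrc1, a core protein without a redox centre, the differences were 0.06 ± 0.07, 0.06 ± 0.07 and 0.00 ± 0.07. Over the 4 probes the log2 differences in MM ran from -0.02 to 0.11, so that none reached 1.2-fold, and the interval of 3 of the 4 lay within 1.2-fold either way.

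Complex IV, cytochrome c oxidase, had 1 called probe of 9, Cox7a2l, and it was the probe with the largest difference of all 68. The protein it encodes belongs to the Cox7a family and is known as a factor that joins complexes III and IV in supercomplexes. Cox7a2l was 11.06 to 11.31 in MM (median 11.24), 10.80 to 11.12 in MS (median 11.08) and 10.24 to 11.08 in SM (median 10.97), against 10.43, 10.45, 10.47 and 10.49 in SS. All MM and MS arrays and all SM arrays but SM 3 lay above the SS arrays, whose values spanned a narrow range. The log2 difference was 0.73 ± 0.11 in MM (adjusted p = 2.03e-05, limma), 0.55 ± 0.11 in MS (adjusted p = 7.37e-04) and 0.40 ± 0.11 in SM (adjusted p = 0.0182). These are a 1.66-fold, a 1.46-fold and a 1.32-fold higher level. The call in SM was lost without SS 4 (adjusted p = 0.0531), with median scaling (adjusted p = 0.0574) and with only the arrays compared (adjusted p = 0.118).

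The other complex IV subunits stayed near SS. Cox4i1, the largest nuclear-encoded subunit, differed by -0.02 ± 0.07 in MM, -0.04 ± 0.07 in MS and -0.03 ± 0.07 in SM. Cox5a differed by 0.07 ± 0.08, 0.13 ± 0.08 and 0.04 ± 0.08, and Cox5b by 0.15 ± 0.09, 0.13 ± 0.09 and 0.13 ± 0.09. Leaving Cox7a2l aside, the adjusted p of these and of Cox6a1 and Cox8a was 0.256 or more in the comparisons with SS.

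Several complex IV subunits come as pairs, of which one form is known from heart and skeletal muscle. Cox6a1, the widely expressed form, was detected on all 24 arrays, while Cox6a2, the heart and muscle form, was at background on all 24. Cox8a was detected on all 24 arrays, Cox8b on 18 and Cox8c on 2. Cox6a1 was 13.69 to 13.92 in MM (median 13.87), against 13.62, 13.81, 13.81 and 13.81 in SS, and differed by 0.09 ± 0.07 in MM (adjusted p = 0.394, limma). Cox8a differed by -0.04 ± 0.07 (adjusted p = 0.691), and Cox8b by 0.20 ± 0.14 (adjusted p = 0.365) near the detection limit. Of the 7 muscle markers on the array, 3 (Acta1, Tagln and Tnnt3) were detected on all 24 arrays and 4 on no array.

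Complex V had no called subunit among 13 in any comparison. Atp5f1a and Atp5f1b, the alpha and beta subunits that form the catalytic head, differed from SS by 0.15 ± 0.07 and 0.04 ± 0.06 in MM. Atp5f1c, the rotor shaft, differed by 0.17 ± 0.07 (adjusted p = 0.0828, limma) and passed only with the larger background offset (adjusted p = 0.0431). Atp5po, part of the outer stalk, differed by 0.08 ± 0.07. In MS these 4 differed by 0.11 ± 0.07, 0.03 ± 0.06, 0.13 ± 0.07 and 0.08 ± 0.07, in the order given. In SM they differed by 0.04 ± 0.08, 0.01 ± 0.06, 0.08 ± 0.07 and 0.13 ± 0.07.

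The proton-carrying ring of complex V is made of copies of 1 protein that 3 genes encode. Atp5mc1 differed from SS by -0.05 ± 0.09 in MM and Atp5mc2 by 0.10 ± 0.10. The probe for Atp5mc3 was detected on 12 of 24 arrays and on 0 of the 4 SS arrays, so it was not well above background in SS and no difference is given. Over the 13 complex V probes the median log2 difference was 0.06 in MM, 0.03 in MS and 0.04 in SM.

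**Figure D4:**
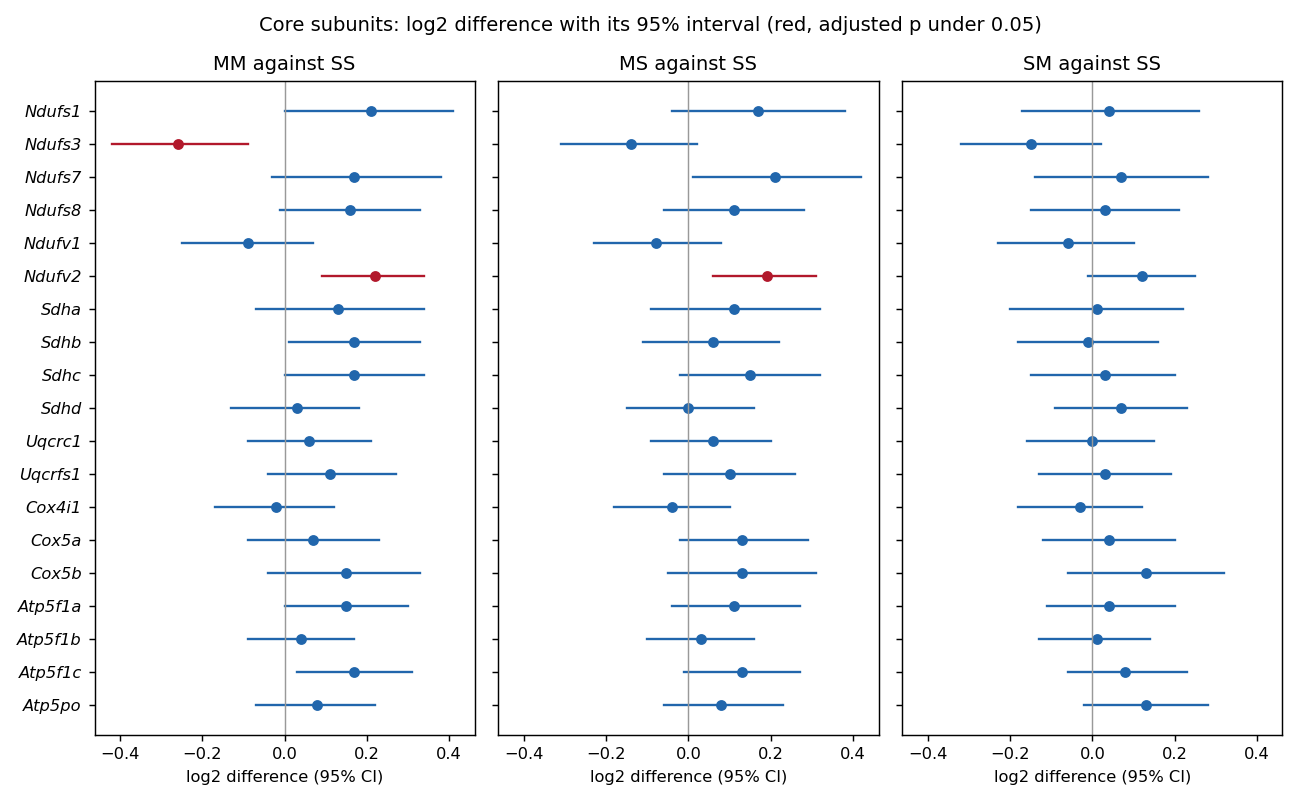
Log2 difference (points) with its 95% interval (lines) for 19 subunits of complexes I to V (y axis) in MM, MS and SM against SS, with red for adjusted p under 0.05. Of the 19, Ndufv2 passed in MM and MS, higher, and Ndufs3 in MM, lower, and each interval lies between -0.42 and 0.42.

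The 9 assembly factors, which the symbol rule takes in although they are not subunits, had 1 call in MM, lower, 1 in MS, higher, and 0 in SM. Ndufaf4, which acts early in the assembly of complex I, was 6.87 to 7.04 in MM (median 7.00), 6.68 to 7.39 in MS (median 7.09) and 7.03 to 7.32 in SM (median 7.18), against 7.14, 7.16, 7.22 and 7.62 in SS. All 7 MM arrays lay below the lowest SS array, and the log2 difference was -0.32 ± 0.10 (adjusted p = 0.0208, limma). Without SS 1, the highest SS array, it was not called (adjusted p = 0.128), nor with median scaling (adjusted p = 0.203).

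Ndufaf5, an enzyme that modifies the complex I subunit Ndufs7, was 9.57 to 9.80 in MM (median 9.64), 9.49 to 9.85 in MS (median 9.77) and 9.53 to 9.90 in SM (median 9.60), against 9.28, 9.38, 9.52 and 9.59 in SS. The groups overlapped. The log2 difference was 0.21 ± 0.08 in MM, 0.27 ± 0.08 in MS and 0.23 ± 0.09 in SM, and MS alone passed (adjusted p = 0.0783, 0.0262 and 0.0829, limma). The call was lost without SS 2 (adjusted p = 0.0814) or SS 4 (adjusted p = 0.131), with median scaling (adjusted p = 0.277) and with only the arrays compared (adjusted p = 0.058). Ndufaf2 differed by -0.22 ± 0.10 in MM (adjusted p = 0.115) and by 0.02 ± 0.10 in MS. Ndufaf1, Ndufaf3, Ndufaf6 and Ndufaf7 differed by 0.04 to 0.09 in MM. Of the complex II factors, Sdhaf2 differed by -0.13 ± 0.10 and Sdhaf3 by 0.11 ± 0.16 in MM.

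On each slide alone the called members kept their direction. Both slides are part of the arrays that gave the calls, so this is no independent check. On slides 1 and 2 alone, the log2 difference of Cox7a2l was 0.67 and 0.78 in MM, 0.48 and 0.63 in MS, and 0.26 and 0.55 in SM. That of Ndufa7 was 0.46 and 0.27 in MM, 0.43 and 0.29 in MS, and 0.38 and 0.33 in SM. In MM, Ndufa8 differed by 0.49 and 0.28, Ndufb8 by 0.48 and 0.23, Ndufb11 by 0.25 and 0.27, Ndufv2 by 0.31 and 0.13, Ndufs3 by -0.33 and -0.18 and Ndufaf4 by -0.42 and -0.20. In MS, Ndufa10l1 differed by 0.35 and 0.37, Ndufaf5 by 0.21 and 0.33, and Ndufv2 by 0.25 and 0.12. With 12 arrays a slide, none of these passed on slide 1 alone and few on slide 2 alone. With slide as a block all of the calls against SS held, and 7 in place of 5 members were called in MS, with Ndufa8 and Ndufb8 added.

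The comparisons that leave out SS tested the second and the first injection in METH-treated rats. MM against SM asks what the first METH injection left in rats that received METH at the second, and MM against MS what the second added in rats that had METH before. None of the 68 members passed in either, where 1.28% and 1.13% of all tested probes did. At an unadjusted p under 0.05, 11 of 68 members passed in MM against SM and 2 in MM against MS, against 2078 and 1695 of the 12956 probes. No other limma setting called a member in these comparisons.

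All 68 members had a 95% interval within 1.5-fold in both of these comparisons, and 42 and 57 lay within 1.2-fold. The smallest adjusted p in MM against SM was 0.0784, for Atp5mg, a membrane subunit of complex V (log2 difference -0.25 ± 0.07), and 0.0846 for Cox7a2l (0.33 ± 0.10). In MM against MS it was 0.175, for Ndufaf2, and Cox7a2l differed by 0.18 ± 0.09 (adjusted p = 0.420). The median log2 difference over the members was 0.02 in MM against SM and 0.01 in MM against MS, and in MM against SM it was -0.05 when arrays were scaled to a common median and -0.12 with the authors' series matrix values.

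Whether the second injection acted differently after a first was tested as the difference between MM minus MS and SM minus SS. The only member that passed was Ndufa7, where 7.67% of all tested probes did. Its log2 difference was 0.00 ± 0.07 in MM against MS and 0.35 ± 0.08 in SM against SS, and the first less the second was -0.36 ± 0.11 (adjusted p = 0.0389, limma). Within slides 1 and 2 the difference was -0.36 and -0.35, with adjusted p = 0.539 and 0.221. The call was lost when any of 16 of the 24 arrays was left out, with the highest adjusted p, 0.0901, without SS 2, and with median scaling (adjusted p = 0.0727). This comparison also includes the SS arrays, in which Ndufa7 was lowest. Without the 3 arrays of low weight, Cox7a2l was called as well.

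Other genes of mitochondrial energy metabolism were counted in the same fit, where 11.0% of all tested probes were higher and 11.5% lower in MM, 8.80% and 9.23% in MS, and 6.07% and 7.59% in SM. With median scaling, 8 of the 14 genes called in MM in these lists were not called (Idh3b, Sucla2, Gapdh, Surf1, Twnk, Nrf1, Polrmt and Vdac3), and with the series matrix values none of the 14 was. Of 14 probes for the citric acid cycle and pyruvate dehydrogenase, which feed the chain, 4 were higher (28.6%) and 0 lower in MM, 3 higher (21.4%) and 0 lower in MS and 0 in SM, with a median log2 difference of 0.17, 0.15 and 0.10. The 4 in MM were Cs, citrate synthase (0.64 ± 0.14, adjusted p = 0.00182, limma), Mdh2, mitochondrial malate dehydrogenase (0.30 ± 0.08, adjusted p = 0.00917), Idh3b, a subunit of isocitrate dehydrogenase (0.25 ± 0.07, adjusted p = 0.0129), and Sucla2, a subunit of succinyl-CoA synthetase (0.38 ± 0.13, adjusted p = 0.0364). Of these, the call of Mdh2 was lost without SS 1 (adjusted p = 0.0649), that of Idh3b without SS 1 or SS 4 (adjusted p = 0.0689 and 0.0558), and that of Sucla2 without SS 2, SS 3, SS 4, MM 1, MM 2, MM 4, MM 5 or MM 6 (adjusted p = 0.0524 to 0.219). Without the 3 arrays of low weight, Idh3b was not called either (0.19, adjusted p = 0.0517, limma).

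In glycolysis, 2 of 15 probes were higher (13.3%) and 1 lower (6.67%) in MM, near the shares of all tested probes (11.0% and 11.5%). Tpi1, triosephosphate isomerase (0.31 ± 0.07), and Gapdh (0.24 ± 0.09) were the higher ones and Pfkp, a phosphofructokinase form (-0.25 ± 0.07), the lower one, with adjusted p of 0.00219, 0.0431 and 0.00594. Gapdh lost its call without SS 1, SS 3, MM 1, MM 3, MM 5, MM 7 or MS 7 (adjusted p = 0.05 to 0.192). Gapdh was also not called without the 3 arrays of low weight (0.16, adjusted p = 0.115, limma). Of 21 probes for electron carriers and assembly factors with other names, 2 were higher in MM (9.52%, against 11.0% of all tested probes), the complex I assembly factor Tmem126b (0.48 ± 0.10, adjusted p = 7.87e-04, limma) and the complex IV assembly factor Surf1 (0.24 ± 0.07, adjusted p = 0.0110). In MS both were also called higher (0.40 and 0.22), and Coq7 of the same list was called lower (-0.53, adjusted p = 0.00435, limma).

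The regulators of mitochondrial DNA and biogenesis had 4 of 11 probes lower (36.4%) and 0 higher in MM, 2 lower (18.2%) in MS and 2 lower (18.2%) in SM. In MM these were Polg, the mitochondrial DNA polymerase (-0.40 ± 0.09, adjusted p = 0.00192, limma), Twnk, the helicase of that replication machinery (-0.26 ± 0.07, adjusted p = 0.00643), Nrf1, a transcription factor of respiratory genes (-0.37 ± 0.13, adjusted p = 0.0381), and Polrmt, the mitochondrial RNA polymerase (-0.24 ± 0.09, adjusted p = 0.0472). Polrmt missed the threshold when any of 17 of the 24 arrays was left out (adjusted p = 0.0507 to 0.132), and Nrf1 without SS 3, SS 4, MM 2, MM 4, MM 5 or MM 6 (adjusted p = 0.0553 to 0.288). Polg and Twnk were also the 2 called lower in MS (-0.55 and -0.38) and in SM (-0.44 and -0.33). Both passed for the interaction, which includes the SS arrays (0.59 and 0.45, adjusted p = 0.00246 and 0.00251, limma). So did Coq7 of the electron carrier list (0.56, adjusted p = 0.0453) and Vdac3 of the other mitochondrial proteins (-0.34, adjusted p = 0.0406). The median of the 11 regulators was 0.01 in MM, with 6 above 0 and 5 below. Of 18 other mitochondrial proteins, Vdac3, a channel of the outer membrane, was the only call in MM (5.56% of the list, log2 difference 0.24 ± 0.08, adjusted p = 0.0237), and it was lost without SS 2 or SS 4 (adjusted p = 0.0677 and 0.099). Vdac1 differed by 0.19 ± 0.07 (adjusted p = 0.0667) and Slc25a4, the adenine nucleotide carrier, by 0.19 ± 0.08 (adjusted p = 0.0638).

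**Figure D5:**
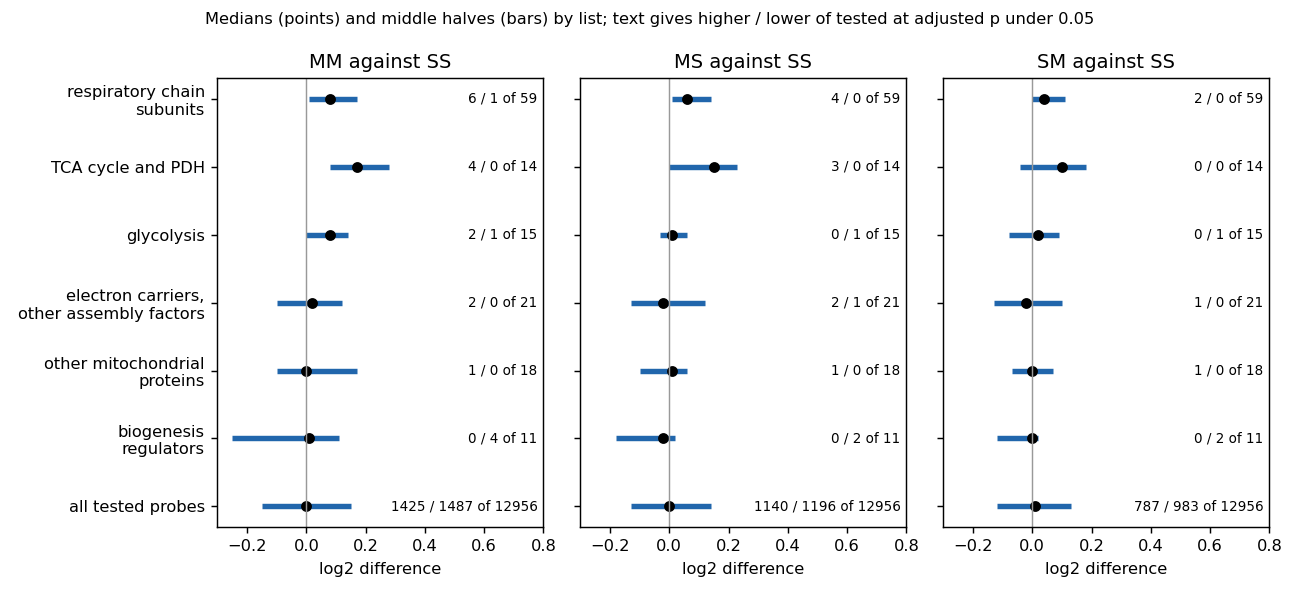
Median log2 difference (points) and interquartile range (bars) of the respiratory chain subunits, 5 other gene lists and all tested probes (y axis) in MM, MS and SM against SS, with the number higher and lower of those tested at adjusted p under 0.05 printed at the right. The median of the citric acid cycle list is the highest in each panel (0.17 in MM, 0.15 in MS and 0.10 in SM), and that of all tested probes is 0.00 to 0.01.

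The promoters of the genes are where regulators shared by many of these subunits bind, and 62 of the 71 genes have a promoter in the RefSeq table for the GRCr8 build, which spans 250 bases before and 50 after the start of each gene. The median GC content of these was 57.5%, against 52.3% over 27457 genes, and they held a median of 21 CG pairs, against 7. Short motifs were searched on both strands. The core of the NRF1 motif (GCGCATGC) was in 17.7% of the 62, against 2.66% of all promoters, and an ETS core (CCGGAAG), which GABP binds, in 30.6%, against 9.22%. A YY1 core (AAGATGG) was in 16.1%, against 7.3%, an SP1 core (GGGCGG) in 46.8%, against 34.9%, and TATAAA in 6.45%, against 14.3%. An ERR core (CAAGGTCA) and a CREB core (TGACGTCA) were each in 6.45%, against 1.48% and 1.91%. A match is a run of letters and not a site shown to be bound. The NRF1 letters occur with their reverse complement overlapping in some promoters, and each promoter was counted once.

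The promoters of 4 genes among the called ones are shown, since these genes had calls in different directions and groups, as chosen after their values were seen. Cox7a2l had the largest difference and lies at chr6:16936324-16936623 (+ strand), Ndufa7 was called in the most comparisons and lies at chr7:15311196-15311495 (+ strand), Ndufb8 was higher in MM and lies at chr1:253362887-253363186 (- strand), and Ndufaf4 was lower in MM and lies at chr5:43401545-43401844 (+ strand). Capitals mark matches to the NRF1, ETS or YY1 letters, and the rest is in lower case.
Cox7a2l: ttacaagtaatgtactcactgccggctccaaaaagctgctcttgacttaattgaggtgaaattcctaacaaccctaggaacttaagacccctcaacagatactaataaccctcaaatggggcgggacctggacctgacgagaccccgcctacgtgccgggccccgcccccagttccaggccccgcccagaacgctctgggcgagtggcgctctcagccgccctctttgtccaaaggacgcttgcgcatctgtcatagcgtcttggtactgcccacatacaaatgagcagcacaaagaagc
Ndufa7: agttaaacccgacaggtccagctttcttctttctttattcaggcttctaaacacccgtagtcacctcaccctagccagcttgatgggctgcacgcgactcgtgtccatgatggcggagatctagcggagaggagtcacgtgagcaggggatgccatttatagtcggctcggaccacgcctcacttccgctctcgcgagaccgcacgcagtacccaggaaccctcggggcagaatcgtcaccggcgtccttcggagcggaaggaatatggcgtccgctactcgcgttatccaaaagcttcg
Ndufb8: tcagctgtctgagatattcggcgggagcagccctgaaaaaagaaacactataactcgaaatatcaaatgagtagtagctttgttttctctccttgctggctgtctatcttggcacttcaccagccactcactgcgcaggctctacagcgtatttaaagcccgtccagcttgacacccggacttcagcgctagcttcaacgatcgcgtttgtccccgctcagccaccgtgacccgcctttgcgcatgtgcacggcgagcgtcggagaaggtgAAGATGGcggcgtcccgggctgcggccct
Ndufaf4: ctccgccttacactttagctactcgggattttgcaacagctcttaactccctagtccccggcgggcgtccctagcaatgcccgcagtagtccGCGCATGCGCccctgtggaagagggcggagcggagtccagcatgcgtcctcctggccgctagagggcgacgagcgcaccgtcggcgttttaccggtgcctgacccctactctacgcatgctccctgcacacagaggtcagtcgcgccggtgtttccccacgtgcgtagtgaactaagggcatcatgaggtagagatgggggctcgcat
The Cox7a2l and Ndufa7 windows held none of these letters, Ndufb8 held the YY1 letters after its start and Ndufaf4 the NRF1 letters, on both strands.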

How the data were processed

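Total RNA from 24 samples was hybridised to 1-colour Illumina rat BeadChips. The authors exported the intensities from BeadStudio (version not given in the sources used here) with the background of each array taken off and no scaling from array to array, and the deposited values go down to -21. They also deposited detection p-values as 1 minus p, in a row order unlike that of the intensities (Spearman correlation -0.00699 to 2.47e-04 per array), so these were given to the intensities by rank within each array. The authors' series matrix holds log2 values, which are these intensities with a floor at 1 and each probe's median taken away (largest difference 2.32e-06).

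Groups were taken from the labels, and arrays were numbered within a group in accession order. Intensities were background-corrected and quantile-normalised with neqc (limma 3.58.1, R 4.3.3, offset 16). A probe was tested where 4 or more arrays had a detection p-value under 0.05. A linear model with 1 mean per group was fitted with limma to all 24 arrays, and p-values were adjusted over all tested probes (Benjamini-Hochberg), with calls at an adjusted p under 0.05. Normalised arrays correlated at a Spearman of 0.947 to 0.988. The number of arrays and their background limit the precision. The fit was tested on simulated data.

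The members and gene lists were chosen with earlier results of these data known. Members named were up to 8 each way with the largest difference among those called in a comparison, core subunits (Ndufs7 and Ndufs8 were added after their values were seen), the tissue isoforms and the assembly factors, and from the other lists up to 4 genes with the smallest p in MM against SS. Gene names came from the platform's annotation. Subunits without a probe under the rule are not analysed here. Promoters came from RefSeq (GRCr8) by Entrez ID, with the first entry of a gene.

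The alternatives were no background correction, an offset of 50, median scaling, the series matrix values, no filter, detection on all 24 arrays, array weights, robust moderation with a variance trend, a fit to just the groups compared, a term for slide, either slide by itself, 1 probe per gene and each array left out. Leaving out the 3 arrays with a weight under 0.5 and the recounts of the other gene lists were added after the data were seen. Figures were drawn with matplotlib 3.10.9 (Python 3.11.15).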

Additional observations from a re-analysis of the deposited data

Results flagged for a closer look

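In 156 sets of arrays (32 named genes and 7 means over a complex, the assembly factors or all subunits, in each of 4 groups), 20 held an array whose gap to its neighbour was large for the range of its group. Chance gives about 1 in 20 such sets. The gap is given as a share of the group's range. In MM, MM 5 was highest for Ndufv1 (0.692), MM 4 highest for Ndufaf5 (0.584) and MM 4 lowest for Ndufs7 (0.579) and the complex I mean (0.638). In MS, MS 1 was lowest for Cox5b (0.665) and Ndufa8 (0.597) and highest for Ndufs3 (0.622) and Uqcrfs1 (0.637), while MS 6 was highest for Uqcrc1 (0.642) and MS 7 for Cox8b (0.616). In SM, SM 3 was lowest for Cox7a2l (0.775), Ndufs1 (0.725) and Sdha (0.642), and SM 1 for Cox6a1 (0.779) and Ndufs7 (0.649). In SS, SS 1 was lowest for Cox5b (0.898), Cox6a1 (1.000), Ndufs8 (0.908) and Sdhc (0.917) and highest for Ndufaf4 (0.831). The other 3 SS arrays had the same Cox6a1 value after quantile normalisation. MS 1, SM 3 and SS 1 are the arrays of low weight.

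The log2 difference that followed the second injection differed with the first for Ndufa7, by -0.36 (adjusted p = 0.0389, limma). This comparison includes the SS arrays, in which Ndufa7 was lowest. The call was lost with median scaling (adjusted p = 0.0727) and in most of the runs that left out a single array.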

How the results depend on the processing

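The values in this section are counts of the 68 members called by limma and their median log2 difference. With median scaling 4 were called in MM, 2 in MS and 1 in SM against SS and 0 for the interaction, and the median in MM against SM was -0.05. With the series matrix values the counts were 1, 0, 0 and 0, and the medians were 0.15 in MM, 0.16 in MS and 0.22 in SM against SS and -0.12 in MM against SM. All tested probes then shifted by 0.13, 0.14, 0.25 and -0.11. On slide 1 alone the counts were 0, 0, 0 and 0, and on slide 2 alone 2, 3, 1 and 0. With only the arrays compared they were 2 in MS and 1 in SM. Without the 3 arrays of low weight they were 4 in SM and 2 for the interaction. These settings use fewer arrays or other scalings, and the cause of each change was not tested.

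With each array left out in turn, 7 to 9 members were called in MM against SS, 3 to 9 in MS, 1 to 3 in SM, 0 to 2 for the interaction, and 0 to 0 in MM against SM and in MM against MS. The lowest count in MS came without SS 1, SS 2 or MS 4 and the highest without SM 3, the lowest in SM without SS 4 and the highest without SS 1 or SM 3. The medians ran from 0.05 to 0.10 in MM against SS, 0.05 to 0.09 in MS, 0.03 to 0.07 in SM, 0.01 to 0.03 in MM against SM and 0.00 to 0.02 in MM against MS.

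Of 3837 recomputed values of named genes, 101 changed sign, and all 101 were uncalled both before and after. Called values kept their direction in every alternative run. No paired analysis was possible because the labels give no replicate number that groups share. The number of arrays limits the smaller differences, and Cox8b, Ndufb4 and Atp5mc3 were detected on 18, 19 and 12 of the 24 arrays.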
